A study of Mus musculus with 2 samples.

Results

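Insulin-like growth factor (IGF) binding proteins and the type 1 IGF receptor were followed in mouse embryonic stem cells (mESCs) depleted of AIMP3. The genes were *Igfbp2*, *Igfbp3*, *Igfbp4*, *Igfbp5*, *Igfbp6*, *Igfbp7* and *Igf1r*. They were found on the array by matching the accession of each probe to these symbols in RefSeq, which gave 7 genes and 8 probes of 37018 genes and 55681 probes. *Igfbp2* had 2 probes and each of the others had 1. The cells were AIMP3f/f;cre-ERT2 mESCs, from clones derived from blastocysts, in which both copies of *AIMP3* (RefSeq symbol *Eef1e1*) can be cut by a Cre recombinase fused to a tamoxifen-responsive oestrogen receptor. AIMP3-depleted cells received 2 μM tamoxifen for 4 days and control cells received ethanol, both in medium with LIF, the cytokine that keeps mESCs undifferentiated. Control cells carried the same floxed alleles and the same Cre. No cells given tamoxifen without the floxed alleles were analysed here, so the drug, active Cre and loss of AIMP3 cannot be told apart. RNA of 2 AIMP3-depleted replicates was labelled with Cy5, and each was hybridised on its own array against 1 pool of RNA from control replicates labelled with Cy3. The pool counts as 1 control sample whose own spread was not measured. The dyes were not swapped, so dye and condition cannot be told apart. The labels do not say whether the replicates were separate cultures. The limma p-values and intervals rest on the spread between these 2 samples, moderated towards the spread of all tested genes.

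IGF1 and IGF2 are secreted growth factors that activate the tyrosine kinase receptor encoded by *Igf1r*, which signals through IRS adaptors to PI3K and AKT and through RAS to MAPK, and which supports survival and self-renewal of stem cells in culture. The IGF-binding proteins are secreted carriers that hold IGFs away from the receptor or deliver them near cells, and several also act without IGFs. The classical members share a cysteine-rich N-terminal IGFBP domain and a C-terminal thyroglobulin domain, while IGFBP7 keeps the N-terminal domain and binds IGFs with low affinity.

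Each array held 59305 spots that are not controls, and 60.2% and 60.4% of them were well above background in Cy3 and 60.6% and 59.3% in Cy5 on the arrays of replicates 1 and 2. No spot was saturated. Values are log2 ratios of the AIMP3-depleted signal to that of the control pool, after background correction and loess normalisation. The direction follows the dyes in the labels, Cy5 over Cy3, and is the opposite of the ratio that the methods word as control divided by test. A gene was called changed when it passed 1.5-fold (0.58 on the log2 scale) with an unadjusted limma p under 0.05. The transcript of the deleted gene, *Eef1e1*, had log2 ratios of -0.90 and -0.90, a fold of 0.536 with an adjusted limma p of 4.76e-05, and whether its probe lies within the deleted part is not given in the sources used here. Of 24022 genes tested, 1518 (6.32%) changed, 1328 of them raised (5.53%) and 190 lowered (0.791%). An adjusted p under 0.05 at any fold was common, at 54.3% of genes, of which 30.6% of all genes were above 0 and 23.7% below it.

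All 8 probes of the binding proteins and receptor were well above background in both channels on both arrays, so all 7 genes were tested. The scanner software's own error of the log2 ratio on an array was 0.26 to 0.31 for *Igfbp5* and *Igfbp7* and 0.20 to 0.21 for the others. This error does not enter the limma fit. None of the 7 passed the 1.5-fold threshold, against 6.32% of all genes, although *Igfbp7* passed it under 4 alternative settings and on the array of replicate 2 alone, and *Igfbp6* with median centring. 6 of the 7 genes had a positive mean log2 ratio, and *Igfbp2* a negative one that turned positive with median centring in place of loess, where 52.7% of all genes were positive after loess. An adjusted limma p under 0.05 was reached by 6 of the 7, 5 above 0 and 1 below it, where 54.3% of all genes reached it. *Igfbp2* missed it in the deposited value table (adjusted limma p of 0.0709, ratio -0.15) and passed it with the opposite sign with median centring, and *Igfbp3* missed it with the scanner software's processed signals (0.0502). None of the 7 reached it in a 1-sample test without limma's moderation, with adjusted p from 0.184 to 0.595. That test has 1 residual degree of freedom, and the share of all genes that reached it is not given here. Their median log2 ratio was 0.23, and 0.26 over the 6 binding proteins alone, while the median of all tested genes was 0.02 with quartiles of -0.13 and 0.19. In order of mean log2 ratio, the genes ran *Igfbp7*, *Igfbp6*, *Igfbp5*, *Igf1r*, *Igfbp3*, *Igfbp4* and *Igfbp2*, an order that with median centring became *Igfbp6*, *Igfbp7*, *Igf1r* and *Igfbp3*, then *Igfbp4* and *Igfbp5* both at 0.31, then *Igfbp2*. *Igfbp5* also stood above *Igfbp6* with the scanner software's processed signals (0.45 against 0.37) and in the deposited value table (0.49 against 0.41). After loess, the arrays of *Igfbp7* and *Igfbp6* overlapped, as did those of *Igf1r* and *Igfbp3* and those of *Igfbp3* and *Igfbp4*. *Igfbp6* lay above *Igfbp5* by 0.09 and 0.14 on the 2 arrays, and below it on both with processed signals and in the deposited table. *Igfbp5* lay above *Igf1r* by 0.06 and 0.08, close to the median difference of 0.0679 between the arrays for a gene. These neighbouring gaps were not tested. RNA of whole cultures was measured, so fewer cells of a type and less RNA per cell cannot be told apart.

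**Figure D1:**
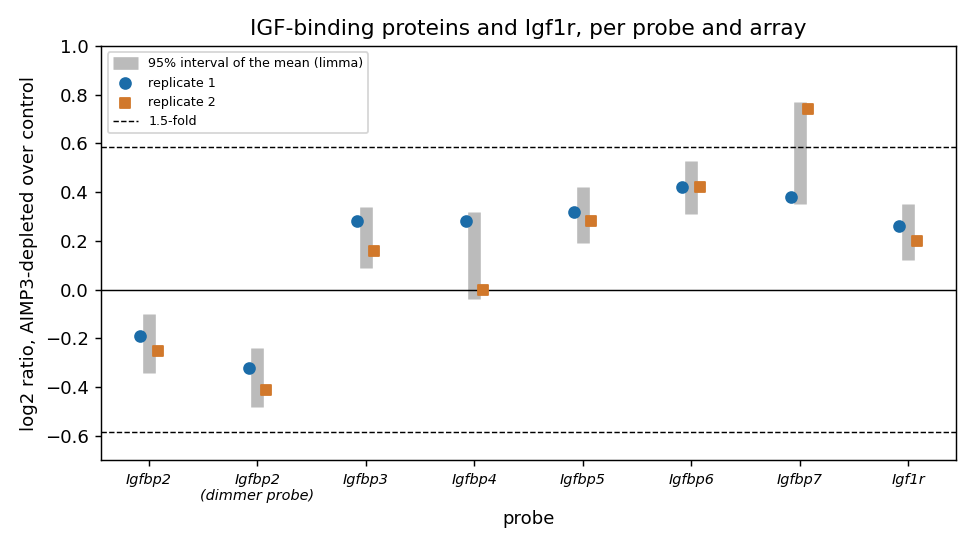
Log2 ratio (vertical axis) for each of the 8 probes. Circles and squares are the arrays of replicates 1 and 2, grey bars the 95% confidence interval of the mean from limma in the fit over probes, and dashed lines 1.5-fold. The one point past a dashed line is replicate 2 of *Igfbp7* at 0.74, and both probes of *Igfbp2* are below 0, where median centring takes their means to 0.18 and 0.03.

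**Figure D2:**
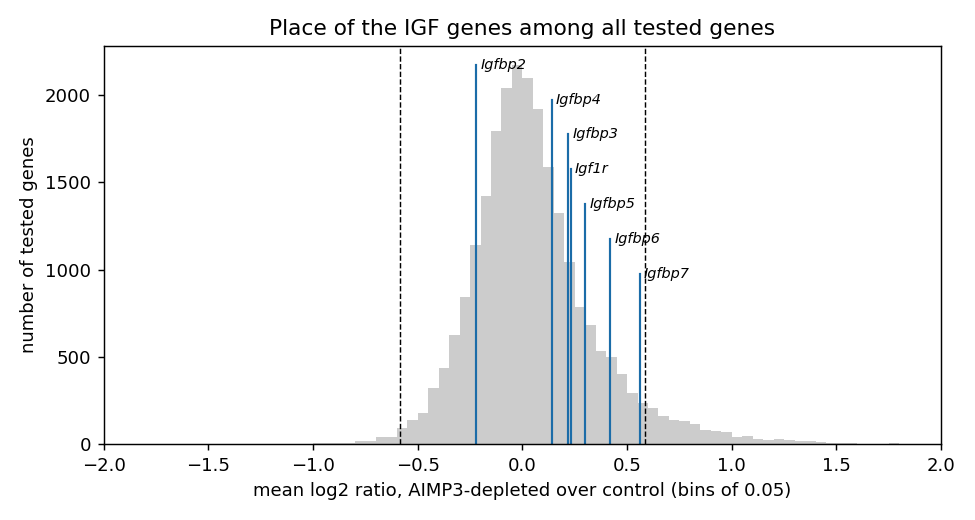
Number of tested genes (grey bars, vertical axis) by mean log2 ratio (horizontal axis), with a blue line at the mean of each IGF gene, whose height carries no value, and dashed lines at 1.5-fold. 6 of the blue lines lie to the right of the median of all genes at 0.02, *Igfbp7* closest to the dashed line, and *Igfbp2* lies to the left at -0.22, though not with median centring.

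*Igfbp7*, a secreted protein of vessels and connective tissue that also binds the IGF1 receptor, had the highest mean of the binding proteins, except with median centring, where *Igfbp6* was at 0.64 and *Igfbp7* at 0.62, and on the array of replicate 1 alone, where *Igfbp6* was at 0.42. Its log2 ratio was 0.38 in replicate 1 and 0.74 in replicate 2. Replicate 2 was therefore past the 1.5-fold line and replicate 1 was not. The mean of 0.56 ± 0.26 (SD, n = 2) was a fold of 1.48, with a 95% confidence interval of 0.36 to 0.77 on the log2 scale and an adjusted limma p of 0.00207, and 6% of all genes had a higher ratio. The 2 arrays differed by 0.36, and 1.15% of genes differed by more. The median spot signal of its probe was 133 and 128 in Cy3 and 261 and 273 in Cy5, which was 2.83 and 2.34 times the local background in Cy3 and 4.75 and 4.55 times in Cy5. Both channels took part in the difference between arrays. In the scanner software's processed signals, centred on each array and dye, replicate 1 lay 0.23 above replicate 2 in Cy3 and 0.20 below it (-0.20) in Cy5. The SD of such differences was 0.207 in either dye, over the probes well above background in that dye on both arrays. The ratio moved with the processing. It reached 0.60 without background subtraction, 0.89 with the software's processed signals, 0.93 in the deposited value table and 0.62 with median centring, and it counted as changed under each of these 4. Measured from the median of all genes, it ran from 0.44 to 0.92 over the 7 alternative settings of background, normalisation, filter and probe choice.

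*Igfbp6*, a carrier with a preference for IGF2 over IGF1, gave the closest agreement of the arrays after loess. With median centring its arrays read 0.68 and 0.60, further apart than those of *Igfbp5* at 0.33 and 0.30. After loess the log2 ratio of *Igfbp6* was 0.42 on both, a mean of 0.42 ± 0.0023 (SD, n = 2) or 1.34-fold. The 95% confidence interval was 0.31 to 0.53 and the adjusted limma p 0.000506. The ratio was higher in 10.4% of genes, and 97.3% of genes differed more between the arrays. Its probe read 2230 and 2340 in Cy3 and 5040 and 4400 in Cy5, at 47.7 to 81.3 times the local background. Measured from the median of all genes, the ratio of *Igfbp6* was between 0.40 and 0.46 over the same 7 settings, while the ratio itself ran from 0.37 to 0.64.

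*Igfbp5*, which binds extracellular matrix and is known from bone and muscle differentiation, had log2 ratios of 0.32 and 0.28. Both arrays stood above 0 and differed by 0.04. The mean was 0.30 ± 0.029 (SD, n = 2), a fold of 1.23, with a 95% confidence interval of 0.20 to 0.41 and an adjusted limma p of 0.00186, and 16% of genes lay higher. The signal of its probe was close to background, at 112 and 114 in Cy3 and 198 and 171 in Cy5, or 2.19 to 3.31 times the local background. The ratio was 0.45 with processed signals and 0.49 in the deposited table, below 1.5-fold in both, and from the median of all genes it ran from 0.13 to 0.48 over the 7 settings.

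*Igfbp3*, the main carrier of IGFs in serum and a known target of p53, had log2 ratios of 0.28 and 0.16. The mean was 0.22 ± 0.087 (SD, n = 2), a fold of 1.16, with a 95% confidence interval of 0.10 to 0.34 and an adjusted limma p of 0.0114. Its probe read 883 and 918 in Cy3 and 1780 and 1410 in Cy5. Both arrays were positive, and a larger ratio was found in 22.2% of genes. With median centring the ratio was 0.41, and from the median of all genes it was 0.20 to 0.23 over the 7 settings. *Igfbp1*, the liver-type binding protein that neighbours *Igfbp3* on chromosome 11, was not well above background in either channel of either array and was not tested.

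*Igfbp4*, a carrier that is cleaved by the protease PAPP-A to release IGF, did not agree between the arrays. Its log2 ratio was 0.28 in replicate 1 and -0.003 in replicate 2, a mean of 0.14 ± 0.20 (SD, n = 2). The 95% confidence interval of -0.03 to 0.31 held 0, and the adjusted limma p was 0.145, so a change of *Igfbp4* was not detectable after loess. With median centring, which raised the median of all genes to 0.18, the ratio was 0.31, from 0.49 and 0.13, with an adjusted limma p of 3.33e-05. That fit gave every gene the same variance, so this p does not take in the spread of *Igfbp4* itself, and over the other alternative settings the adjusted p was at most 0.502 and at least 0.12. Its Cy3 readings were 446 and 453 and its Cy5 readings 864 and 604. The arrays differed in the AIMP3-depleted channel, by 0.33 in Cy5 against -0.02 in Cy3 after centring. Of all genes, 3.21% differed more between the arrays.

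*Igfbp2*, the binding protein abundant in embryonic and stem cells, was read by 2 probes. The brighter one had log2 ratios of -0.19 and -0.25, with a mean of -0.22 ± 0.048 (SD, n = 2), a fold of 0.858, a 95% confidence interval of -0.33 to -0.11 and an adjusted limma p of 0.00763, yet its sign turned to 0.18 with median centring. The other probe had log2 ratios of -0.32 and -0.41, a mean of -0.36 ± 0.064 (SD, n = 2) with an adjusted limma p of 0.00173 in the fit over 33012 probes, and 0.03 with median centring. Neither probe was called changed, where 5.72% of probes were (4.97% raised and 0.745% lowered). Both passed an adjusted p under 0.05 below 0, as 22.8% of probes did, with 27.8% above 0 and 50.5% in either direction. The brighter probe read 36400 and 39600 in Cy3 and 61200 and 52900 in Cy5. Its Cy5 reading was thus the higher one before normalisation, while the ratio was negative once the trend of all spots at that brightness had been taken out by loess. Median centring, which takes 1 value from every spot of an array, moved the median of all tested genes to 0.18, and the brighter *Igfbp2* probe then lay 0.00 from that median.

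*Igf1r*, the receptor through which IGF1 and IGF2 signal, had log2 ratios of 0.26 and 0.20. The mean was 0.23 ± 0.042 (SD, n = 2), a fold of 1.18, with a 95% confidence interval of 0.12 to 0.34 and an adjusted limma p of 0.00574. Its probe read 3370 and 3290 in Cy3 and 6820 and 5350 in Cy5. The arrays differed by 0.06, less than for 55.2% of genes. A higher ratio was found in 20.8% of genes, and measured from the median of all genes the ratio was between 0.22 and 0.28 over the same 7 settings, while the ratio itself reached 0.46 with median centring.

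**Figure D3:**
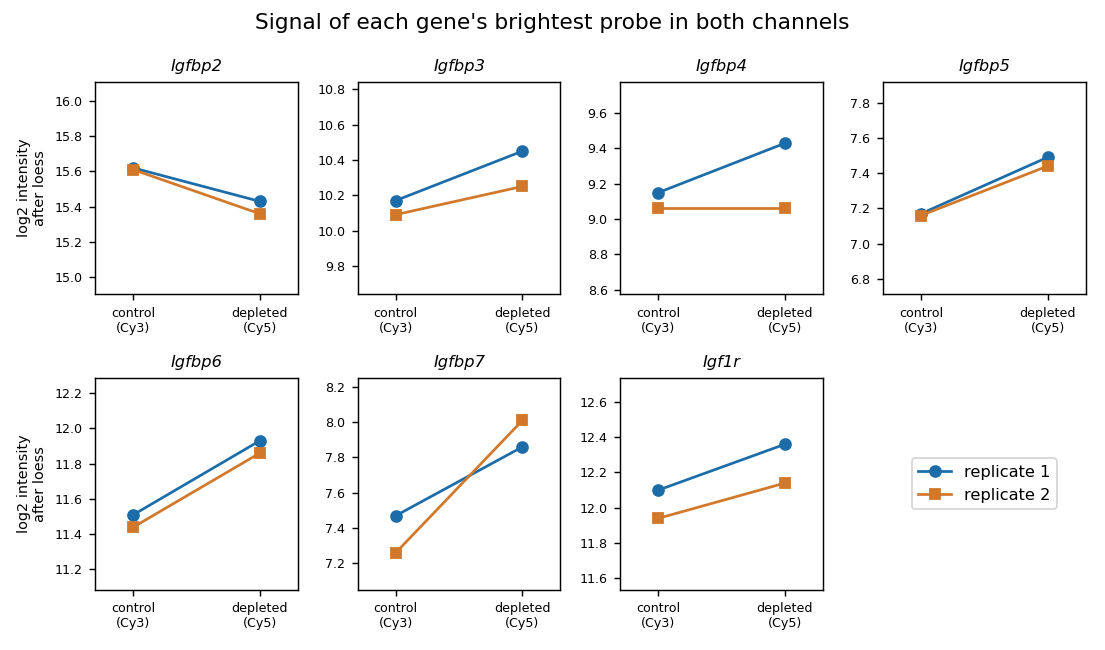
Log2 intensity after loess (vertical axis, a separate range in each panel) of the brightest probe of each gene in the control pool (Cy3) and in AIMP3-depleted RNA (Cy5), with 1 line for each replicate. The lines of *Igfbp7* cross, from 7.47 to 7.86 in replicate 1 and from 7.26 to 8.01 in replicate 2, those of *Igfbp4* part in Cy5 at 9.43 and 9.06, and those of *Igfbp2* slope downward, a direction that turns with median centring.

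The regions before the transcription starts were read from RefSeq on GRCm38.p6, 250 bases upstream of each annotated start, which gave 8 windows because *Igfbp2* has 2 starts. No binding or methylation was measured. Windows are printed for the genes with, after loess, the highest ratio, the closest arrays and the one negative ratio (positive with median centring). They are given 5′ to 3′ on the strand of the gene, with capitals on the GC box GGGCGG, on its reverse complement CCGCCC, and on TATAAA or its reverse complement TTTATA. They lie at chr5:77408046-77408295 (minus strand) for *Igfbp7*, chr15:102143936-102144185 (plus strand) for *Igfbp6* and chr1:72824230-72824479 (plus strand) for *Igfbp2*.
Igfbp7: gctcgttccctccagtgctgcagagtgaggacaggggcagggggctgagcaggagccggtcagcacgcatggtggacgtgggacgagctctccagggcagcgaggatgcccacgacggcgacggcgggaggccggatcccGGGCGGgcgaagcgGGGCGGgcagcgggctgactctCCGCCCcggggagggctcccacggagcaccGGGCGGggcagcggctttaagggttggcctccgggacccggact
Igfbp6: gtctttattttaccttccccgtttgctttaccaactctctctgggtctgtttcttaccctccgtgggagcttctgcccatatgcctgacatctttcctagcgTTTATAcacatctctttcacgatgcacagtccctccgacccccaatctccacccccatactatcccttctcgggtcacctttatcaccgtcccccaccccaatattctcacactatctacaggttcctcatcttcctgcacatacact
Igfbp2: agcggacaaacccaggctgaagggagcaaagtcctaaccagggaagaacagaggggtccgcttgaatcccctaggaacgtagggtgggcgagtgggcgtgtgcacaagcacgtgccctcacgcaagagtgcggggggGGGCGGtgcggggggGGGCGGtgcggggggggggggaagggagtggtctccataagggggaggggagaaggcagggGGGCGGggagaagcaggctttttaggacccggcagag

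The *Igfbp7* window held 4 GC boxes, 110, 96, 74 and 44 bases before the start, with 74.0% G and C and 26 CpG dinucleotides. The printed *Igfbp2* window held 3, at 113, 98 and 37 bases, with 67.2% G and C and 14 CpG. The *Igfbp6* window held none, with 49.6% G and C and 7 CpG, near the medians of 52.4% and 6 over all 32851 windows, and its TATA letters lay 148 bases before the start. GC boxes were in 3 of the 8 windows, the third being that of *Igf1r*, against 32.7% of all windows. TATA letters were in 2 of 8, the other being 28 bases before the *Igfbp4* start, against 12.4%. The p53 half-site was in none of the 8, against 7.13%, including the *Igfbp3* window. These are matches of letters on both strands, with no overlap between motifs. The window of the second *Igfbp2* start, at chr1:72825137-72825386, held no GC box, with 56.4% G and C and 11 CpG. *Igfbp2* and *Igfbp5*, which are adjacent coding genes on opposite strands of chromosome 1, had ratios of -0.22 and 0.30, or 0.18 and 0.31 with median centring.

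The other genes of the pathway were taken from lists ordered by role, 70 genes of which 63 were tested. In these lists 9 genes rose and 1 fell, 15.9% of those tested against 6.32% of all genes (5.53% raised and 0.791% lowered), and the median log2 ratio of all 63 was 0.12 with 43 positive and 20 negative. All 10 of the genes that rose or fell also passed the threshold in each of these 7 settings. Among the ligands 1 of 4 rose. It was *Igf2*, the fetal growth factor, with log2 ratios of 1.00 and 0.86, a mean of 0.93 ± 0.097 (SD, n = 2) and an adjusted limma p of 6.3e-05. The median of the 4 ligands was 0.20. Of the 3 other receptors none passed the threshold. *Insr*, the insulin receptor, had a mean of -0.53 from -0.40 and -0.65, but its other probes read -0.06 and 0.02. With processed signals *Insr* passed the threshold, at -0.60. *Igf2r*, which clears IGF2, had a mean of 0.40 ± 0.0072 (SD, n = 2), and passed the threshold with median centring, at 0.66. Of the partners of binding proteins, *Igfals*, which holds IGFBP3 in the serum complex, had a mean of -0.09, and 0.06 without background subtraction.

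Genes that share the IGFBP domain without being classical carriers included 4 that rose of 8 tested, with none that fell and a list median of 0.47. They were the matricellular proteins *Ccn4* (1.26), *Ccn1* (0.97) and *Ccn2* (0.84), and the membrane protein *Crim1* (0.68). Proteases of the binding proteins and their inhibitors included 2 that rose and 1 that fell of 7 tested. The list median was 0.06, with 0.16 in replicate 1 and -0.05 in replicate 2. *Pappa*, the protease that cleaves IGFBP4, rose, at 0.61 ± 0.065 (SD, n = 2), a fold of 1.52, but replicate 2 alone, at 0.56, was below 1.5-fold. *Htra1*, a secreted serine protease, rose, at 0.65. *Klk1*, a kallikrein with close paralogs that the probe may share, fell, at -0.95. Among the receptor adaptors 1 of 10 rose, with a median of 0.17. It was *Irs1*, the docking protein of the IGF1 and insulin receptors, at 1.55 ± 0.038 (SD, n = 2) with its brighter probe and 0.26 with its dimmer one. In the PI3K-AKT-mTOR and FOXO branch 1 of 19 rose, *Pik3r3*, a regulatory subunit of PI3K, at 0.79, with a median of 0.09. In the RAS-MAPK branch none of 8 passed, with a median of 0.10. By the brightest probe, the most distant from 0 after loess were *Hras* at 0.33 and *Braf* at -0.27. With median centring *Braf* was at -0.03. Dimmer probes of *Mapk3* and *Braf* lay further from 0 after loess, at -0.42 and -0.41. None of the 3 IGF2 mRNA-binding proteins passed. *Igf2bp1* had -0.17 and *Igf2bp2* -0.06. Both turned positive with median centring, at 0.13 and 0.15, yet stayed below the median of all genes in that setting (0.18).

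**Figure D4:**
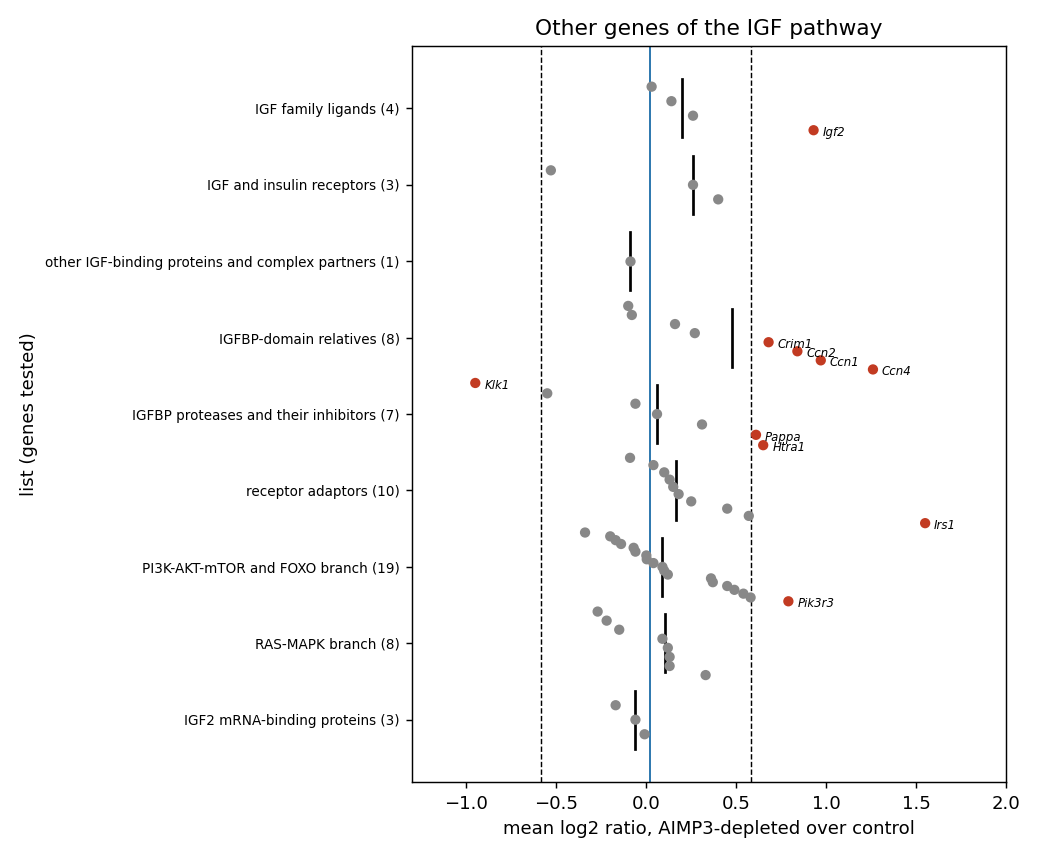
Mean log2 ratio (horizontal axis) of each tested gene of the pathway lists (rows), with the 10 that passed 1.5-fold and p under 0.05 in red and named. Black ticks are list medians, the blue line is the median of all tested genes at 0.02 and dashed lines mark 1.5-fold. The red points lie among the ligands, IGFBP-domain relatives, proteases, adaptors and PI3K branch, with *Irs1* at 1.55 and *Klk1* at -0.95 at the ends.

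Lists of markers of other cell types were read on the same arrays. The mESCs are generally grown on feeder fibroblasts per the labels, and the methods name fibroblast-conditioned medium during treatment. Of 22 fibroblast markers 20 were tested, 20 were positive and 13 rose, where 52.7% of all genes were positive and 5.53% rose, with a median log2 ratio of 0.76 and a range of 0.01 to 1.42. Their summed processed signal was 26251 and 25931 in Cy3 and 44044 and 44515 in Cy5, and *Lum* was not above background in any channel. Of 21 markers of primitive and parietal endoderm 18 were tested, 18 were positive and 14 rose, against the same shares of all genes, with a median of 1.01 and a range of 0.23 to 1.44. Their summed signal was 124413 and 129851 in Cy3 and 228794 and 233638 in Cy5, and *Ttr* and *Afp* were not above background. Markers of embryonic stem cells, 19 of 19 tested, had a median of -0.10 and ranged from -0.87 to 0.50, with none that rose and 2 that fell, where 0.791% of all genes fell, and their summed signal was 188921 and 189576 in Cy3 and 182089 and 181694 in Cy5. Fibroblasts and endoderm are known sources of several binding proteins, and the part of these cells in the ratios of *Igfbp3* to *Igfbp7* was not tested.

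**Figure D5:**
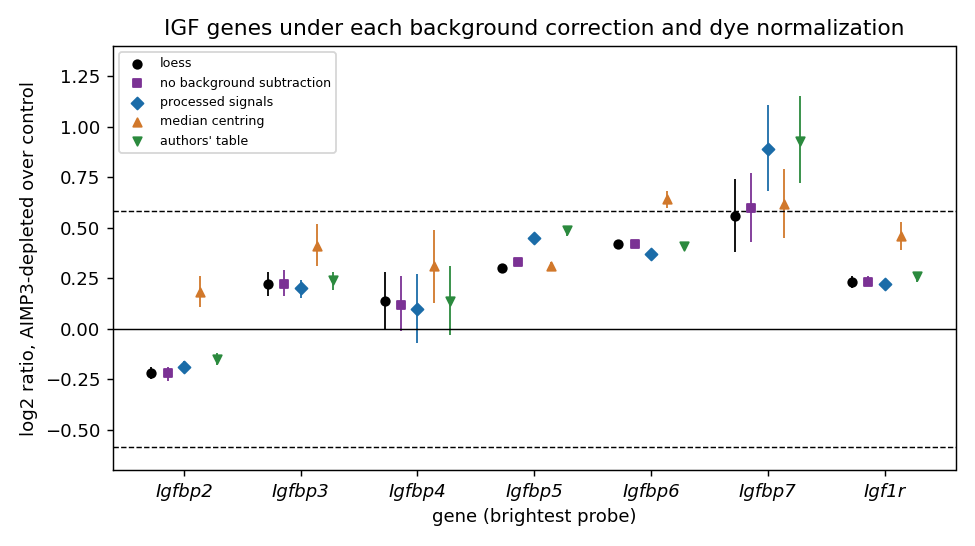
Mean log2 ratio (vertical axis, markers) of each gene under 5 settings of background and normalisation, with bars from the lower to the higher array and dashed lines at 1.5-fold. *Igfbp7* spreads from 0.56 to 0.93, and *Igfbp2* crosses from negative values to 0.18 with median centring, a setting that also takes *Igfbp6* to 0.64.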

How the data were processed

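Gene expression was measured on Agilent mouse 8×60K arrays designed on mm9. The authors deposited scanner output from Feature Extraction (version 11.5.1.1 in the file headers, another version than the methods name), with the intensity of each spot and its background, not normalised. The deposited files also hold processed signal intensity, background-subtracted and dye-normalised by the software, flags for spot quality, and the software's error of the log10 ratio. The value table deposited by the authors holds log2 ratios. Set against the processed signals, its values were the log2 of Cy5 over Cy3 plus 0.0404 and 0.0395 on the 2 arrays, within 0.01 for 99.6% of 55681 probes. The 2 column medians were 0.0909 and 0.111, and why the table was shifted is not given in the sources used here. Columns of per-sample values left unmapped numbered 0.

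In R 4.3.3 with limma 3.58.1, median signals were corrected by normexp (offset 50) and normalised by loess (span 0.3), control spots were dropped and 215 and 227 spots with outlier flags were left out. Spots of a probe were averaged. A probe was tested when, on each array, Cy3 or Cy5 was well above background, which held for 33012 and left out 22669. The brightest probe stood for a gene, and 14975 of 24022 genes had a RefSeq symbol. The mean log2 ratio was tested against 0 with lmFit and eBayes, with 1 residual and 5.29 prior degrees of freedom (1.78 to 6.25 in the alternatives, and infinite with median centring, where all genes share 1 variance), and p-values were adjusted by Benjamini-Hochberg over all genes or probes. Precision is limited by there being 2 arrays. The scripts were tested on simulated data with bright probes and larger changes than those of the IGF genes, so that test does not bear on changes of their size.

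Alternatives were no background subtraction, processed signals, median centring, no filter, a stricter filter, the mean of probes, the deposited table, a 2-fold threshold, a 1-sample test without moderation and leaving out each replicate. Named genes were the 7 IGF genes, *Eef1e1*, and in each pathway list the changed genes or, without any, the 2 furthest from 0 by the brightest probe. *Mapk3*, *Pappa2* and *Stc2* are named for their values with another probe or setting. Marker lists were given by counts, and *Igfbp1*, *Lum*, *Ttr* and *Afp* are named as not above background. 2 genes of the fixed lists are not reported here and were taken out of the counts of their lists. The members and lists were chosen with earlier results of these data known. No protein sequences were used here.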

Additional observations from a re-analysis of the deposited data

How the results depend on the processing

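Median centring turned *Igfbp2* to 0.18 and took *Igfbp6* to 0.64, past 1.5-fold. *Igfbp7* passed 1.5-fold without background subtraction (0.60), with processed signals (0.89), with median centring (0.62) and in the deposited table (0.93). The number of the 7 genes changed was 1 without background subtraction, 1 with processed signals, 2 with median centring and 1 in the table, where 6.76%, 11.3%, 12% and 11.4% of all genes changed, and 0 to 1 when a replicate was left out. It was 1 without replicate 1 (6.87% of all genes), where *Igfbp7* stood at 0.74, and *Igfbp4* ran from -0.003 to 0.28 over the single arrays.

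Changed genes numbered 2720 with processed signals (71.5% raised), 2891 with median centring (97.8%), 2747 in the table (77.5%) and 298 at 2-fold (94.3%), against 1518 (87.5%). At 2-fold the ligands, the PI3K branch and the proteases held 0 and the IGFBP-domain relatives 1. The proteases held 5 with processed signals and 5 in the table, against 3, and 2 to 3 when a replicate was left out, the lower number without replicate 1, where *Pappa* was at 0.56. The receptors held 1 with processed signals (lowered), 1 with median centring (raised) and 0 to 1 when a replicate was left out. The adaptors held 3 with median centring and 2 in the table. The PI3K branch held 6 with median centring, 2 in the table and 1 to 2 when a replicate was left out, the higher number without replicate 1. Of the proteases that were added with processed signals and in the table, *Pappa2* moved from 0.31 after loess to 2.08 and 2.12, and *Stc2* from -0.55 to -0.69 and -0.65. The stricter filter left *Pappa2* out. Counts with a replicate left out, for the IGF genes and for the lists, rest on fold alone, since 1 array gives no p. The causes of these moves were not tested. A 1-sample test without moderation gave unadjusted p from 0.00247 (*Igfbp6*) to 0.507 (*Igfbp4*) in an n of 2.

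Each array carries the same control pool, and dye is confounded with condition. No paired analysis was possible because 1 control pool served both replicates. Faint signal limits the ratios of *Igfbp5* and *Igfbp7*.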
